A study of Mus musculus with 28 samples.

Results

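The genes described here encode cytochromes P450 and the enzymes that work beside them on steroids, lipids, aldehydes and foreign compounds. They were chosen by gene symbol: every row of the deposited expression table whose name begins as a numbered Cyp, Hsd or Sult gene, or as Akr1, Akr7, Ugt, Aldh2 to Aldh9, Dhrs or Ephx. Of the 13128 genes with a symbol, 72 matched, 5 of those were set aside by the rule (Cyp51, Cyp4a12a, Hsd11b2, Hsd17b7 and Dhrs3), and the remaining 67 are the members. They comprise 18 cytochromes P450, 12 aldo-keto reductases, 9 aldehyde dehydrogenases, 7 hydroxysteroid dehydrogenases, 7 other short-chain dehydrogenases (Dhrs), 7 sulfotransferases, 5 UDP-glucuronosyltransferases and 2 epoxide hydrolases.

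All groups come from 1 cell line, DC2, immortalized epithelial cells of the mouse epididymis (distal caput), the duct in which sperm mature. Cells at confluence were given corticosterone, which is the chief glucocorticoid in mice, at 500 ng/ml in ethanol (0.1% of the medium), or the same ethanol alone as vehicle. Corticosterone and vehicle cultures were collected on day 3 at the end of treatment, on day 6 after 3 days of recovery in replaced medium, and on day 9 after 6 days of recovery, and vehicle-labelled cultures were collected on day 0 before treatment. Each of the 7 groups had 4 libraries of polyadenylated RNA, 28 in all. The labels do not say that replicates were separate cultures, so the p-values measure the spread between these libraries, which may be technical.

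Cytochromes P450 add oxygen to steroids, fatty acids, vitamins and drugs, taking their electrons from a reductase in the same membrane. Hydroxysteroid dehydrogenases, aldo-keto reductases and short-chain dehydrogenases interconvert alcohols with ketones and aldehydes and so switch steroid hormones between active and inactive forms. Sulfotransferases and UDP-glucuronosyltransferases then attach sulfate or glucuronic acid, which makes the product soluble and, for a steroid or phenol, usually inactive. In the epididymis such enzymes are known for handling androgens and for the defence of sperm against reactive lipids.

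Values are the authors' log2 CPM, where CPM is a gene's reads scaled to a common library total, so that each unit is a doubling. The lowest value in the table is -4.15, at which between 7 and 44 genes of each library stand, and no fold change is given against a group that stands wholly there. A call means an adjusted p below 0.05 from limma over all 13128 genes, and the error given with a log2 fold change is its standard error (SE). A rise or fall with corticosterone is a difference from vehicle cultures of the same day, not from day 0. All 67 members reached a log2 CPM of 0 in at least 4 libraries, as did every gene of the table. Cyp2b10, Cyp4a12b, Cyp4b1, Sult1a1, Sult1d1, Sult1e1 and Ugt2b35, 7 members, reached it in corticosterone libraries only, so that their presence in the table already implies a difference.

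The cells carried part of the identity given by the label. Of 14 markers of epididymal principal cells only 3 were in the table, among them the transcription factors Pax2 and Pax8. Of 8 general epithelial markers, 7 were in the table. These did not move together: at day 6 Krt7 was higher with corticosterone (2.09 ± 0.32, adjusted p = 3.99e-06), as were Krt8 and Cldn4, and Cdh1 was lower (-1.63 ± 0.13, adjusted p = 3.08e-11), as was Krt18. Their summed levels were 62.0 to 83.5 CPM in corticosterone libraries and 75.5 to 77.5 CPM in vehicle libraries at day 3, 58.6 to 66.4 CPM and 62.3 to 65.6 CPM at day 6, and 68.0 to 86.3 CPM and 66.5 to 72.8 CPM at day 9. The macrophage genes Cd68 and Csf1r were the 2 of 6 leukocyte markers in the table; they summed to 7.88 to 11.3 CPM in corticosterone libraries and 28.4 to 29.6 CPM in vehicle libraries at day 3, to 10.3 to 13.8 CPM and 49.1 to 57.6 CPM at day 6, and to 45.7 to 50.8 CPM and 87.6 to 108 CPM at day 9. Fibroblast markers (4 of 6 in the table) summed to 31.0 to 34.0 CPM in corticosterone libraries and 47.1 to 51.4 CPM in vehicle libraries at day 3, to 20.9 to 21.6 CPM and 49.8 to 53.2 CPM at day 6, and to 48.0 to 50.2 CPM and 54.9 to 73.3 CPM at day 9. They did not move together: 1 was called higher at day 3 and at day 6, with log2 fold changes up to 1.44 and 1.19. On each of those days 3 were called lower, with log2 fold changes down to -1.38 and -1.82. Endothelial markers (2 of 3) were higher with corticosterone through Kdr. Basal cell, clear cell and hepatocyte markers were not in the table, and of 7 markers of steroid-producing cells Star alone was. The part of these markers in the results below was not tested, and fewer cells of a type cannot be told apart from less RNA per cell. Corticosterone replicate 4 of day 3 stood apart from the other libraries of its group, with the lowest weight of the 28 libraries when limma weighted them (0.079).

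At the end of treatment 33 of the 67 members were higher in corticosterone cultures, 12 were lower and 22 were not called. Leaving out the 7 members that reached a log2 CPM of 0 with corticosterone only, 26 of 60 were higher and 12 lower. Over all genes, 23.3% were called higher and 25.6% lower at day 3, and the median log2 change was 0.31 over the members against -0.01 over all genes. The changes reached at least 2-fold in 15 members upward and 5 downward, against 478 and 428 of the 13128 genes. The 15 include all 7 members that reached a log2 CPM of 0 with corticosterone only. Without the corticosterone library that stood apart, 32 members were called higher and 15 lower. The 6 widest rises were those of Sult1d1, Cyp2b10, Cyp4a12b, Cyp4b1, Sult1a1 and Sult1e1, all of them below 0 log2 CPM in every vehicle library.

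**Figure D1:**
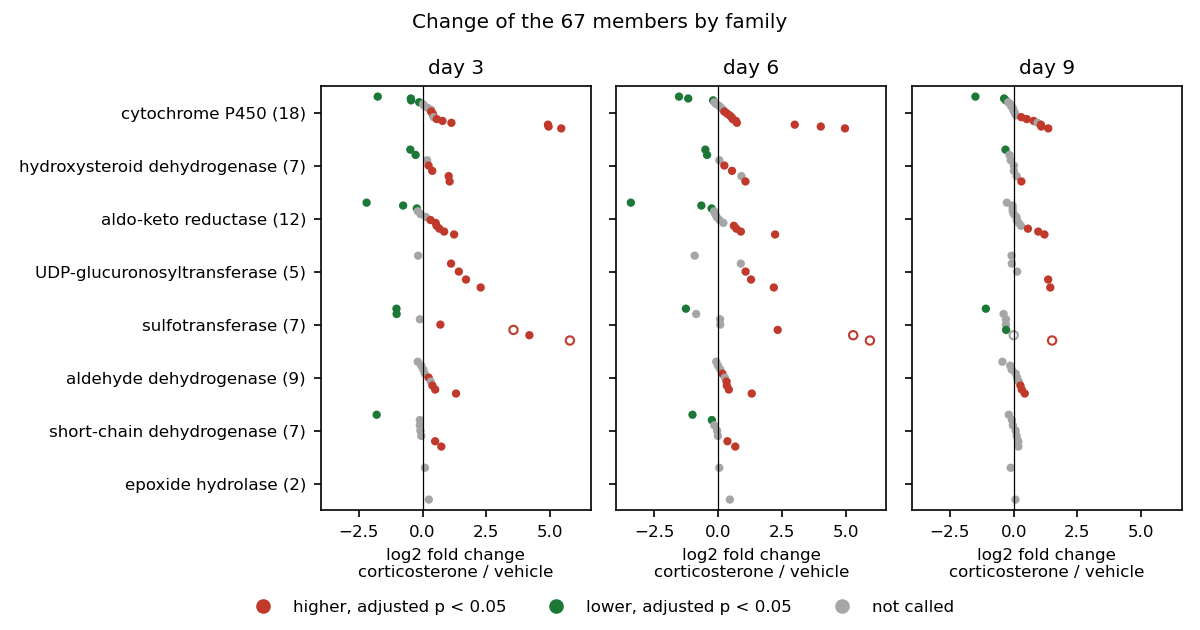
Log2 fold change of each of the 67 members, corticosterone over vehicle, at days 3, 6 and 9, by enzyme family (number of members in parentheses). Each point is 1 gene, coloured by its call in limma; the 2 open symbols are Sult1d1 and Sult1e1, whose vehicle libraries stood at or near the lowest value of the table, so that their position is a fitted difference and not a fold. Changes beyond 2 in either direction at days 3 and 6 lie among P450s, sulfotransferases, aldo-keto reductases and UDP-glucuronosyltransferases, and at day 9 no member lies beyond 1.51 in either direction.

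Among the sulfotransferases, 4 of 7 were higher and 2 lower at day 3; without Sult1a1, Sult1d1 and Sult1e1, whose place in the table already implied a rise, 1 of 4 was higher and 2 lower. Sult1d1, which sulfates catecholamines and small phenols in mice, stood at 1.56, 1.93, 1.13 and 1.88 log2 CPM in corticosterone cultures at day 3, against the table's lowest value in all 4 vehicle libraries (adjusted p = 1.88e-12). At day 6 it was at 1.75, 2.58, 1.61 and 1.76 with corticosterone, against the lowest value in 3 of the 4 vehicle libraries and -3.66 in the other (adjusted p = 9.17e-13). The groups were far apart on both days, and the gene was at the lowest value in all 4 day 0 libraries too. At day 9 the corticosterone libraries were at -3.33, -2.96, -3.22 and -1.07 and all 4 vehicle libraries at the lowest value. That day's call (adjusted p = 0.00367) was lost on the log2(CPM + 1) and log2(CPM + 5) scales, with quantile normalization and when only the groups compared were fitted (adjusted p = 0.0565 to 0.685), and its fitted difference of 1.51 was 0.98 without corticosterone replicate 6.

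Sult1e1, the estrogen sulfotransferase, was at the lowest value in every vehicle library of the study. With corticosterone it was at -1.27, -0.13, -0.37 and -0.59 log2 CPM at day 3 (adjusted p = 2.96e-09) and at 1.28, 1.23, 1.73 and 0.33 at day 6 (adjusted p = 1.56e-12). At day 9 all 4 corticosterone libraries stood at the lowest value again. Every library of day 6 was therefore above every library of day 3, after the hormone had been taken away.

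Sult1a1, which sulfates simple phenols, was at 2.19, 2.21, 2.05 and 1.76 log2 CPM in corticosterone cultures at day 3, against -2.32, -1.77, -2.30 and -2.16 in vehicle cultures. The groups did not overlap, and the log2 fold change was 4.19 ± 0.36 (adjusted p = 3.77e-10). At day 6 3 corticosterone libraries were at 1.42 to 1.69 and replicate 6 was at -0.42, against -1.42 to -1.14 in vehicle, a log2 fold change of 2.33 ± 0.36 (adjusted p = 6.4e-06) that was 2.83 without that replicate. At day 9 the difference was -0.40 ± 0.36 (adjusted p = 0.458) and the groups overlapped, though the gene was called lower with quantile normalization (adjusted p = 0.037).

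The other 4 sulfotransferases did not share a direction. Sult1c2 was at 4.37, 4.65, 4.21 and 4.23 log2 CPM in corticosterone cultures at day 3, against 5.44, 5.47, 5.29 and 5.35 in vehicle cultures. It was lower with corticosterone without overlap on all 3 days, with log2 fold changes of -1.02 ± 0.08, -1.27 ± 0.08 and -0.30 ± 0.08 (adjusted p = 7.22e-11, 1.1e-12 and 0.0072). Sult2b1, which sulfates cholesterol and pregnenolone, had log2 fold changes of -1.02 ± 0.36 at day 3 and -1.09 ± 0.36 at day 9 (adjusted p = 0.0212 and 0.0235). Each of those calls was lost without some single libraries: vehicle replicate 4 or 5 or corticosterone replicate 4 at day 3 (adjusted p = 0.0525 to 0.0692), and vehicle replicate 3 or 6 or corticosterone replicate 4 or 5 at day 9 (adjusted p = 0.0507 to 0.0747). Sult6b1 rose at day 3, by 0.70 ± 0.19 (adjusted p = 0.00412), and Sult5a1 was not called on any day.

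Most of the family's reads came from Sult1c2, and the summed level of the 7 sulfotransferases was 32.2 ± 3.83 CPM with corticosterone against 45.6 ± 2.31 CPM in vehicle at day 3, and 32.9 ± 1.66 against 53.6 ± 1.02 CPM at day 6 (SD, n = 4 each). These sums weight a gene by its reads and were not tested.

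**Figure D2:**
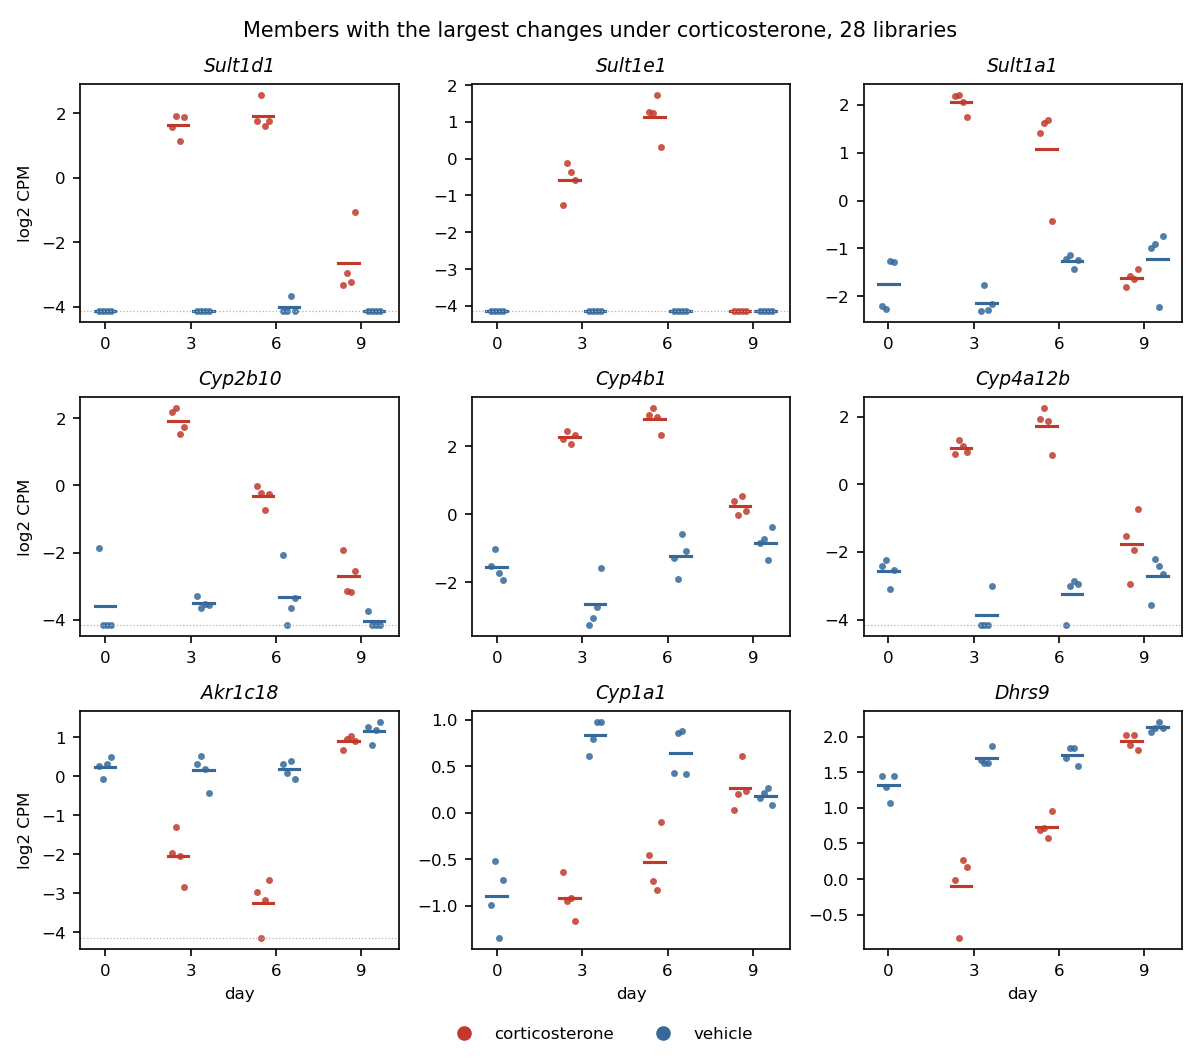
Log2 CPM of 9 members in each of the 28 libraries, by day, with corticosterone libraries in red to the left of vehicle libraries in blue; horizontal bars are group means and the dotted line is the lowest value of the table. Sult1d1, Sult1e1, Sult1a1, Cyp2b10, Cyp4b1 and Cyp4a12b stand above vehicle at days 3 and 6 without overlap, Akr1c18, Cyp1a1 and Dhrs9 stand below it on those days, and the groups are closer together at day 9 than at day 6.

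Of the 18 P450s, 9 were higher and 4 lower at day 3, and 10 were higher and 3 lower at day 6; without Cyp2b10, Cyp4a12b and Cyp4b1, which reached a log2 CPM of 0 in corticosterone libraries only, these were 6 and 4, and 7 and 3, of 15. Cyp2b10, known in liver as a drug-metabolizing enzyme induced through the receptor CAR, was at 2.17, 2.30, 1.52 and 1.73 log2 CPM in corticosterone cultures at day 3, against -3.30, -3.64, -3.52 and -3.57 in vehicle cultures. Its log2 fold changes at days 3 and 6 were 5.44 ± 0.46 and 3.00 ± 0.46 (adjusted p = 2.72e-10 and 5.6e-06). The groups did not overlap on either day, and 1 vehicle library of day 6 stood at the lowest value. At day 9 it was at -1.91, -3.14, -3.18 and -2.55 with corticosterone, against -3.74 in 1 vehicle library and the lowest value in the other 3. That difference, 1.35 ± 0.46 (adjusted p = 0.0297), was not called without vehicle replicate 4, 5 or 6 or corticosterone replicate 3 or 6 (adjusted p = 0.0572 to 0.111), nor under those same 4 alternatives (adjusted p = 0.0756 to 0.675).

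P450s that oxidize fatty acids and eicosanoids made up 9 of the 18, and 6 of these 9 rose at day 3 while none fell. Without Cyp4a12b and Cyp4b1 4 of the other 7 rose. Cyp4b1, which hydroxylates fatty acids and some aromatic amines, was at 2.23, 2.45, 2.06 and 2.34 log2 CPM with corticosterone at day 3, against -3.25, -3.04, -2.74 and -1.57 in vehicle, a log2 fold change of 4.92 ± 0.31 (adjusted p = 7.6e-13). The groups stood apart on all 3 days, with a log2 fold change of 4.03 ± 0.31 at day 6 (adjusted p = 2.96e-11) and 1.08 ± 0.31 at day 9 (adjusted p = 0.00957). The day 9 call was not kept on the log2(CPM + 5) scale (adjusted p = 0.0531).

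Cyp4a12b, a fatty acid omega-hydroxylase, was at 0.89, 1.32, 1.13 and 0.96 log2 CPM with corticosterone at day 3, against the lowest value in 3 vehicle libraries and -3.01 in the other (log2 fold change 4.94 ± 0.42, adjusted p = 2.96e-10). At day 6 the corticosterone libraries were at 1.94, 2.25, 1.88 and 0.86 and the vehicle libraries between -4.15 and -2.85 (4.97 ± 0.42, adjusted p = 2.31e-10). The groups overlapped at day 9, and the difference of 0.93 ± 0.42 was not called (adjusted p = 0.104), though it was 1.32 and called without corticosterone replicate 4 (adjusted p = 0.0215). Its near-identical neighbour Cyp4a12a, set aside by the rule, was at 5.05 to 5.21 log2 CPM with corticosterone and -4.15 to -2.93 in vehicle at day 3, and reads of the pair may not have been fully separated.

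The remaining members of that group changed by less. Cyp4f13 and Cyp4v3, fatty acid omega-hydroxylases, rose by 0.78 ± 0.08 and 0.34 ± 0.08 at day 3 (adjusted p = 8.82e-09 and 0.00136) and by 0.45 ± 0.08 and 0.34 ± 0.08 at day 6 (adjusted p = 4.79e-05 and 0.00109). At day 9 both were lower than in vehicle, with log2 fold changes of -0.31 ± 0.08 and -0.38 ± 0.08 (adjusted p = 0.00493 and 0.000991). Cyp2j6, an epoxygenase of arachidonic acid, and Cyp2u1, which hydroxylates long-chain fatty acids, were higher on all 3 days, Cyp2j6 by 0.42, 0.57 and 0.30 (SE 0.07 each) and Cyp2u1 by 0.39, 0.53 and 0.51 (SE 0.08 each). Cyp4f16 was lower at day 6 alone (-0.20 ± 0.06, adjusted p = 0.012, and 0.0716 without corticosterone replicate 1), and Cyp4f17 and Cyp4x1 were not called on any day.

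Cyp46a1, which hydroxylates cholesterol and is best known from neurons, was at 5.11, 5.21, 5.15 and 5.16 log2 CPM in corticosterone cultures at day 3, against 3.91, 4.01, 4.17 and 4.01 in vehicle cultures. The log2 fold change was 1.13 ± 0.09 at day 3 (adjusted p = 1.84e-10), 0.70 ± 0.09 at day 6 (adjusted p = 8.02e-07) and -0.22 ± 0.09 at day 9 (adjusted p = 0.0881). Groups were separate on the first 2 of these days. Cyp39a1, which acts on the oxysterol that Cyp46a1 makes, was the only other of 9 listed P450s of cholesterol, bile acid and vitamin D metabolism in the table, and was not called on any day. None of 6 listed P450s of steroid hormone synthesis and none of 3 of retinoic acid breakdown was among the members.

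Cyp1a1 and Cyp1b1, known as targets of the aryl hydrocarbon receptor, which senses dioxins and other aromatic compounds, were lower with corticosterone at day 3. Cyp1a1 was at -0.64, -0.96, -0.91 and -1.17 log2 CPM with corticosterone at day 3, against 0.61, 0.80, 0.97 and 0.98 in vehicle. It was lower without overlap at day 3 (log2 fold change -1.76 ± 0.20, adjusted p = 3.51e-08) and at day 6 (-1.17 ± 0.20, adjusted p = 1.75e-05), and at day 9 the difference was 0.09 ± 0.20 (adjusted p = 0.784). Corticosterone libraries of day 3 stood near the day 0 level of Cyp1a1 (-0.90 ± 0.36, SD, n = 4), from which vehicle cultures had risen by 1.74 ± 0.20.

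Cyp2s1, which is expressed in epithelia outside the liver, was lower, with a log2 fold change of -0.45 ± 0.16 at day 3 (adjusted p = 0.0244), where the groups overlapped because corticosterone replicate 4 was at 2.76. Without corticosterone replicate 1, 5 or 6 or vehicle replicate 3 that call was lost (adjusted p = 0.0568 to 0.0744). The difference was wider later: 2.11, 1.98, 1.99 and 2.10 log2 CPM with corticosterone against 3.53, 3.56, 3.64 and 3.59 in vehicle at day 6 (-1.53 ± 0.16, adjusted p = 1.28e-08), and 2.50, 2.73, 2.56 and 2.33 against 4.13, 4.04, 4.06 and 3.91 at day 9 (-1.50 ± 0.16, adjusted p = 9.5e-08). No library overlapped on those days.

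Cyp1b1, which hydroxylates estradiol and aromatic hydrocarbons, changed direction between days. With corticosterone it was at 5.48, 5.55, 5.69 and 5.58 log2 CPM at day 3, against 6.05, 5.96, 6.07 and 6.06 in vehicle, and was lower, with a log2 fold change of -0.46 ± 0.05 (adjusted p = 7.99e-09). At day 6 it was higher, by 0.24 ± 0.05 (adjusted p = 0.000133), and at day 9 it was at 6.33, 6.29, 6.34 and 6.34, against 5.58, 5.41, 5.60 and 5.58 in vehicle, a log2 fold change of 0.78 ± 0.05 (adjusted p = 2.43e-12). The groups did not overlap on any day.

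Promoters are shown for the 5 of the 6 widest risers that have a RefSeq entry, which were higher together at days 3 and 6, and for Cyp1a1, a known aryl hydrocarbon receptor target that was lower on those days. Each is the 250 bases before the annotated start in RefSeq (GRCm38.p6), read on the strand of the gene and written 5′ to 3′. Capitals mark the hexamer site that forms each arm of the glucocorticoid receptor's element, TGTTCT or its reverse complement AGAACA, and the core of the aryl hydrocarbon receptor element, GCGTG or its reverse complement CACGC.
Sult1d1, chr5:87569007-87569256, minus strand: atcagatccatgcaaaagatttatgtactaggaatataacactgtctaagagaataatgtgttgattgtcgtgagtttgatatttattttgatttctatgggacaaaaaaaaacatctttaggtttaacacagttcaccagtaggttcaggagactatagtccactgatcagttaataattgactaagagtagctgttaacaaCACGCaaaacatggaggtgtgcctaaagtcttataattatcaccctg
Cyp2b10, chr7:25897408-25897657, plus strand: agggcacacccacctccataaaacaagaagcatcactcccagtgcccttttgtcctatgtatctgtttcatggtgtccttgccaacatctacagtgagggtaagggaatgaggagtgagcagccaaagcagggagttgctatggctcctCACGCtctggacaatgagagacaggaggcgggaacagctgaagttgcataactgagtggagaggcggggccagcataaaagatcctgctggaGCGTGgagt
Cyp4b1, chr4:115647722-115647971, minus strand: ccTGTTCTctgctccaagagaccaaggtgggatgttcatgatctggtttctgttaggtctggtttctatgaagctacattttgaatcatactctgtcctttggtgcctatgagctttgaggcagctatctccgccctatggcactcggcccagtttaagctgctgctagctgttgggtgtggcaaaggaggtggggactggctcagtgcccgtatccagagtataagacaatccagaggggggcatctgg
Sult1a1, chr7:126676419-126676668, minus strand: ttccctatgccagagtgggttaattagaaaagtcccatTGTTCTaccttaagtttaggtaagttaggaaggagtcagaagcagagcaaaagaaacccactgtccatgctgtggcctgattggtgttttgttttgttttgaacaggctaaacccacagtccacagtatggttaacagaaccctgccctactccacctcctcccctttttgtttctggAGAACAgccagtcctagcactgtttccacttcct
Sult1e1, chr5:87591612-87591861, minus strand: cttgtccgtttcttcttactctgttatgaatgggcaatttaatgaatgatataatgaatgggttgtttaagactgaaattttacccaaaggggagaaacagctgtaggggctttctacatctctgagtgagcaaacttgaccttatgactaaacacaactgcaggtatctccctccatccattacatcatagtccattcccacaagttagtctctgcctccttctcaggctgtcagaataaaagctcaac
Cyp1a1, chr9:57697363-57697612, plus strand: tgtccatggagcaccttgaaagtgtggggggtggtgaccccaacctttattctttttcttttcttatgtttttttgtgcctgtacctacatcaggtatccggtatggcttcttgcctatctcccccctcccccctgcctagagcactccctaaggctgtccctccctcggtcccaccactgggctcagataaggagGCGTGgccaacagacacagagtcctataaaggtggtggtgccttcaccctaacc
The window of Sult1a1 holds 2 hexamer sites and that of Cyp4b1 1, Cyp2b10 holds the GCGTG core 2 times, Sult1d1 and Cyp1a1 hold it once each, and the window of Sult1e1 holds neither motif.

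Over windows of 250 bases before to 50 bases after the start, 56 of the 67 members had a RefSeq entry, with 59 windows. The hexamer site was in 11 of these 59 windows (18.6%), in 12.8% of the windows of all genes tested and in 19.0% of all windows of the table. It was in 8 of the 28 windows of members called higher at day 3 (28.6%), in 2 of the 12 windows of members called lower and in 1 of the 19 windows of members not called. The full palindrome, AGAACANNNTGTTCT, was in none of the 59 windows. The GCGTG core was in 25 of them (42.4%), in 49.8% of the windows of genes tested and in 32.4% of all windows. Both strands were searched, the sets were not tested against each other, and a match is a description of the letters in this window.

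Hydroxysteroid dehydrogenases were higher in 4 of 7 and lower in 2 of 7 at day 3. Hsd17b11, an enzyme of lipid droplets that also oxidizes androgen metabolites, was at 7.53, 7.79, 7.60 and 7.48 log2 CPM with corticosterone at day 3, against 6.56, 6.59, 6.62 and 6.53 in vehicle. It rose by 1.02 ± 0.08 at day 3 and 1.07 ± 0.08 at day 6 (adjusted p = 2.01e-11 and 7.47e-12) without overlap. At day 9 its difference was 0.11 ± 0.08 (adjusted p = 0.287). Hsd17b4, a peroxisomal enzyme of fatty acid oxidation, was higher on all 3 days, by 0.38, 0.54 and 0.30 (SE 0.06 each; adjusted p = 2.33e-05, 9.05e-08 and 0.000844).

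Hsd17b12, the ketoacyl reductase of fatty acid elongation, was lower, with log2 fold changes of -0.48 ± 0.07 at day 3 and -0.50 ± 0.07 at day 6 (adjusted p = 2.84e-06 and 1.35e-06). Hsd3b7, an enzyme of bile acid synthesis, was lower, with log2 fold changes of -0.27 ± 0.08 and -0.43 ± 0.08 on those days (adjusted p = 0.00395 and 2.79e-05). Its difference of -0.17 ± 0.08 at day 9 was called only without vehicle replicate 4 (adjusted p = 0.0967 with all libraries and 0.0396 without it). Hsd3b2, an isoform of the enzyme that turns steroid precursors into active hormones, was at 2.67, 2.47, 2.92 and 2.59 log2 CPM with corticosterone at day 9, against 3.05, 2.98, 2.97 and 2.95 in vehicle. It was thus lower at day 9 without overlap (-0.32 ± 0.09, adjusted p = 0.00641). Earlier differences were in the other direction, 0.23 ± 0.09 on day 3 and 0.24 ± 0.09 on day 6 (adjusted p = 0.0278 and 0.0236). The day 3 call was lost without vehicle replicate 4 or 5 or corticosterone replicate 5 or 6 (adjusted p = 0.0510 to 0.120), and the day 6 call without vehicle or corticosterone replicate 6 (adjusted p = 0.0943 and 0.0866). Hsd17b14 had a difference of 1.06 ± 0.41 at day 3 with overlapping groups (adjusted p = 0.0338), and that call was lost when any 1 of 5 libraries was left out, vehicle replicate 3, 4 or 5 or corticosterone replicate 4 or 5 (adjusted p = 0.0548 to 0.122). Hsd11b1, the enzyme that regenerates active glucocorticoid, was not analysed here.

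Aldo-keto reductases were higher in 6 of 12 and lower in 3 of 12 at day 3, and the 5 Akr1c genes, which lie side by side on chromosome 13, did not move together. Akr1c18, which inactivates progesterone in mice, was at -1.97, -1.29, -2.05 and -2.84 log2 CPM with corticosterone at day 3, against 0.31, 0.53, 0.19 and -0.42 in vehicle. At day 6 it was at -2.97, -4.15, -3.17 and -2.67, against 0.32, 0.08, 0.40 and -0.06. The groups did not overlap on either day, and the log2 fold changes were -2.20 ± 0.29 and -3.42 ± 0.29 (adjusted p = 5.88e-07 and 2.17e-10). At day 9 it was at 0.67, 0.96, 1.05 and 0.91 with corticosterone, against 1.27, 0.80, 1.18 and 1.41 in vehicle, and the difference was not called (-0.27 ± 0.29, adjusted p = 0.536).

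Its neighbours Akr1c13, Akr1c19 and Akr1c12 were higher than vehicle on all 3 days without overlap. Akr1c19 was at 4.14, 4.06, 3.97 and 4.34 log2 CPM with corticosterone at day 6, against 1.84, 1.95, 2.13 and 1.64 in vehicle, and its log2 fold changes were 1.24, 2.23 and 0.96 at days 3, 6 and 9 (SE 0.11 each; adjusted p = 5.16e-10, 5.4e-15 and 1.98e-07). Akr1c13 rose by 0.85, 0.89 and 0.56 (SE 0.07 each). Akr1c12 was the member of the cluster with its widest difference at the end of recovery: 2.26, 2.21, 2.41 and 2.35 log2 CPM with corticosterone at day 9, against 1.25, 1.07, 1.07 and 1.01 in vehicle, after log2 fold changes of 0.55 and 0.71 (SE 0.14 each) at days 3 and 6 and 1.20 ± 0.14 at day 9 (adjusted p = 4.67e-07). Akr1c14, a hydroxysteroid dehydrogenase at the end of the cluster, had differences of -0.19, -0.16 and -0.04 (SE 0.23 each) and was not called. The sign of the last 2 differences turned when 1 library was left out, vehicle replicate 5 at day 6 and corticosterone replicate 4 at day 9 (to 0.02 and 0.07).

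The Akr1b genes on chromosome 6 also differed among themselves. Akr1b3, the aldose reductase, was at 5.56, 6.26, 5.32 and 5.46 log2 CPM with corticosterone at day 3, against 6.49, 6.44, 6.46 and 6.27 in vehicle. It was lower, with log2 fold changes of -0.76 ± 0.12 at day 3 and -0.66 ± 0.12 at day 6 (adjusted p = 5.07e-06 and 3.64e-05), with corticosterone replicate 4 of day 3 nearest to vehicle, and was not called at day 9. Akr1b10 rose by 0.31 ± 0.06 at day 3 (adjusted p = 4.17e-05), and the other 2 days were not called. Akr1b8, which reduces reactive aldehydes, was lower at day 6 (-0.26 ± 0.08, adjusted p = 0.00954), and its day 3 difference of -0.23 ± 0.08 (adjusted p = 0.021) was not called without vehicle replicate 3 or corticosterone replicate 1 or 6 (adjusted p = 0.0691 to 0.0986) and was -0.35 without corticosterone replicate 4. Akr1b7, first described as a protein of the mouse vas deferens, had differences of 0.66 ± 0.25 and 0.62 ± 0.25 at days 3 and 6 (adjusted p = 0.0305 and 0.0434). Those calls were lost without vehicle replicate 5 or corticosterone replicate 4 or 5 at day 3 (adjusted p = 0.0693 to 0.148), and when any 1 library but vehicle replicate 3 was left out at day 6 (adjusted p = 0.0538 to 0.155).

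**Figure D3:**
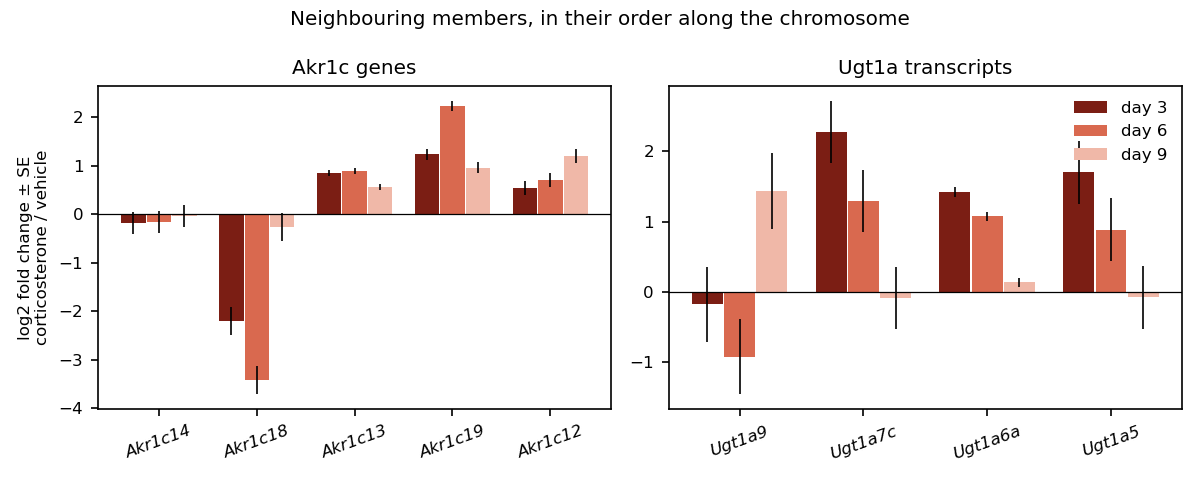
Log2 fold change, corticosterone over vehicle, of the 5 Akr1c genes (left) and the 4 Ugt1a transcripts (right) at days 3, 6 and 9, in their order along the chromosome; bars are fitted changes and lines are ± SE. Akr1c18 lies at -2.20 and -3.42 at days 3 and 6 while Akr1c13, Akr1c19 and Akr1c12 lie above 0 on all 3 days, and Ugt1a9 is the 1 Ugt1a transcript called at day 9.

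UDP-glucuronosyltransferases showed the largest relative gain in summed level of any family: 126 ± 9.34 CPM with corticosterone against 46.6 ± 2.95 CPM in vehicle at day 3, 141 ± 11.7 against 66.8 ± 1.99 at day 6, and 92.6 ± 2.42 against 83.0 ± 3.91 at day 9 (SD, n = 4 each). Vehicle cultures of day 0 had 12.1 ± 0.970 CPM. Nearly all of this was Ugt1a6a, which conjugates small phenols. It was at 6.91, 7.04, 6.90 and 6.75 log2 CPM with corticosterone at day 3, against 5.36, 5.51, 5.45 and 5.58 in vehicle. The rise was 1.42 ± 0.07 at day 3 and 1.08 ± 0.07 at day 6, without overlap (adjusted p = 1.87e-15 and 3.3e-13), and the difference was 0.14 ± 0.07 at day 9 (adjusted p = 0.121).

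Libraries were more scattered for the other Ugt1a transcripts. Ugt1a7c was at 2.58, 0.71, 2.27 and 1.89 log2 CPM with corticosterone at day 3, against -0.66, 0.13, -0.31 and -0.83 in vehicle (log2 fold change 2.28 ± 0.44, adjusted p = 0.000109). At day 6 its groups overlapped, and the difference of 1.29 ± 0.44 (adjusted p = 0.0175) was not called without vehicle replicate 3 or 4 (adjusted p = 0.0644 and 0.0527) or with the replicate number as a block (1.06, adjusted p = 0.0660). Ugt1a5 rose by 1.70 ± 0.45 at day 3 (adjusted p = 0.00262), and Ugt1a9 was called at day 9 alone (1.43 ± 0.54, adjusted p = 0.0459), a call lost when any 1 library but vehicle replicate 4 was left out (adjusted p = 0.0526 to 0.117). The 4 Ugt1a transcripts start at separate first exons on chromosome 1 and all end at position 88220002 (GRCm38), so that they share their last exons and reads from there may not have been fully separated.

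Ugt2b35 lies on chromosome 5 in the region that also holds Sult1d1 and Sult1e1. It was at 1.13, 0.85, 1.05 and 0.72 log2 CPM with corticosterone at day 6, against -1.66, -0.77, -1.63 and -0.93 in vehicle. Its log2 fold changes of 1.12, 2.18 and 1.35 (SE 0.23 each; adjusted p = 0.00022, 1.02e-08 and 6.25e-05) came without overlap on all 3 days.

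Aldehyde dehydrogenases rose in 4 of 9 members at day 3 and 5 of 9 at day 6, and none was called lower on any day. Aldh6a1, a mitochondrial enzyme of valine breakdown, was at 7.44, 7.23, 7.58 and 7.50 log2 CPM with corticosterone at day 3, against 6.14, 6.11, 6.18 and 6.07 in vehicle. It rose by 1.31 ± 0.08 at day 3 and 1.32 ± 0.08 at day 6 (adjusted p = 1.41e-13 and 1.05e-13), and at day 9 the difference was 0.08 ± 0.08 (adjusted p = 0.464). Aldh4a1, of proline breakdown, was higher on all 3 days, by 0.39, 0.42 and 0.32 (SE 0.05 each). Aldh7a1, of lysine breakdown, and Aldh5a1, which oxidizes succinic semialdehyde, were higher at day 9, by 0.43 ± 0.12 and 0.27 ± 0.05 (adjusted p = 0.00668 and 0.000483). Aldh2, the main acetaldehyde dehydrogenase, rose by 0.34 ± 0.08 at day 6 (adjusted p = 0.00118), and its day 3 difference of 0.24 ± 0.08 (adjusted p = 0.0183) was not called without vehicle replicate 3 (adjusted p = 0.0556) or corticosterone replicate 4 (0.13, adjusted p = 0.113).

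Of the short-chain dehydrogenases, Dhrs9, which acts on retinol and on steroids, was at -0.01, -0.83, 0.27 and 0.17 log2 CPM with corticosterone at day 3, against 1.67, 1.63, 1.63 and 1.87 in vehicle. It was lower, with log2 fold changes of -1.80 ± 0.16 at day 3 and -1.01 ± 0.16 at day 6 (adjusted p = 6.24e-10 and 9.26e-06), without overlap. At day 9 the difference was -0.19 ± 0.16 (adjusted p = 0.411). Dhrs7 and Dhrs11 rose at day 3, by 0.73 ± 0.08 and 0.49 ± 0.06 (adjusted p = 5e-08 and 5.44e-07). The other 4 were not called at day 3, and Dhrs4, a reductase of carbonyl compounds, was lower at day 6 (-0.25 ± 0.07, adjusted p = 0.00491). The epoxide hydrolases Ephx1 and Ephx4 were not called on any day. They belong to 16 members without a call at any of the 3 days, together with Akr1a1, Akr1c14, Akr7a5, Aldh3a2, Aldh8a1, Aldh9a1, Cyp39a1, Cyp4f17, Cyp4x1, Dhrs1, Dhrs13, Dhrs7b, Hsd17b10 and Sult5a1. Among these 16 the fitted change farthest from 0 was 0.46, that of Ephx4 at day 6.

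In CPM per kilobase of transcript, the members with the highest levels in vehicle cultures of day 3 were Akr1a1 (210 with corticosterone and 214 in vehicle), Ephx1 (180 and 168), Aldh2 (143 and 120) and Akr1b3 (37.5 and 61.6). The widest movers were at the other end of that scale: Cyp4b1 at 2.56 with corticosterone and 0.0942 in vehicle, and Sult1a1 at 3.15 and 0.173. The near-equal means of Akr1a1 rested on corticosterone replicate 4, the library that stood apart. Before scaling by length it was at 444 CPM there and at 239 to 256 CPM in the other corticosterone libraries of day 3. Those others were all below the vehicle libraries of that day, at 291 to 320 CPM. Replicate 4 was the highest of its group for Ephx1, Aldh2 and Akr1b3 too.

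At day 6, 3 days after the hormone was withdrawn, 30 members were higher in corticosterone cultures, 11 lower and 26 not called (over all genes, 22.9% higher and 24.3% lower). Without the 7 members whose presence in the table already implied a difference, 23 of 60 were higher and 11 lower. Of the 33 members called higher at day 3, 27 were called higher at day 6 too, which is 81.8% of the first set and 90% of the second; of the 12 called lower, 9 were lower at both, 75% and 81.8%. Across the 67 members the fitted changes of days 3 and 6 had a Pearson r of 0.924, a description over genes that are not independent. Those 7 members, all called higher on both days, are among the 27 and in this r. They include the 6 widest rises of day 3, and neither the overlap nor r was computed without them. Neither these overlaps nor this r was computed over all genes, so whether such persistence is particular to the members was not tested. The difference between the 2 days was called in 5 members upward and 6 downward, against 4.21% and 4.9% of all genes.

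Akr1c19 had the larger effect at day 6, by 0.997 on the log2 scale (adjusted p = 7.93e-05), as had Ugt2b35 by 1.07 (adjusted p = 0.0369). The call for Ugt2b35 was lost with the replicate block (adjusted p = 0.0568), when only the groups compared were fitted (adjusted p = 0.0786) and when any 1 of 10 of the 16 libraries was left out (adjusted p = 0.0521 to 0.0893); leaving out the other 6 kept it, and these were vehicle replicate 6 and corticosterone replicates 5 and 6 of day 3, and vehicle replicates 4 and 6 and corticosterone replicate 6 of day 6. Cyp1b1 turned from lower to higher, a difference of 0.70 (adjusted p = 4.33e-08). In the other direction, the effect of day 6 minus that of day 3 was -2.43 for Cyp2b10 (adjusted p = 0.0187; 0.103 with quantile normalization), -1.85 for Sult1a1 (adjusted p = 0.0225; 0.0663 with quantile normalization) and -0.43 for Cyp46a1 (adjusted p = 0.04; 0.0666 with the replicate block). The Cyp46a1 call was also lost when any 1 of the 16 libraries was left out (adjusted p = 0.0509 to 0.0911) other than vehicle replicate 5 or corticosterone replicate 1 of day 3 or vehicle replicate 3 of day 6. Cyp2s1, lower on both days, differed by -1.08 (adjusted p = 0.00262).

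At day 9, 16 members were higher, 6 lower and 45 not called (over all genes, 14.1% higher and 14.4% lower), and the median change was 0.02. Without the 7 members that reached a log2 CPM of 0 with corticosterone only, 12 of 60 were higher and 6 lower. Among the 33 members that had been higher at day 3 the median log2 change was 0.78 at day 3, 0.70 at day 6 and 0.08 at day 9. Choosing them by their day 3 calls favours a high day 3 median, so part of a later decline is built in. The 33 include those 7 members, and no median was taken without them. Of these 33, 11 were called higher on all 3 days: Akr1c12, Akr1c13, Akr1c19, Aldh4a1, Cyp2b10, Cyp2j6, Cyp2u1, Cyp4b1, Hsd17b4, Sult1d1 and Ugt2b35. Among them, Cyp2b10, Cyp4b1, Sult1d1 and Ugt2b35 reached a log2 CPM of 0 in corticosterone libraries only. Cyp4f13, Cyp4v3 and Hsd3b2 had turned lower. Of the members called lower than vehicle at day 3, Cyp2s1 and Sult1c2 were called lower on all 3 days. Shares called on all 3 days were not computed over all genes.

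The corticosterone effect of day 9 minus that of day 6 was called in 10 members upward and 20 downward (16% and 14.9% of all genes). This difference holds the day 6 effect with its sign reversed. Members grouped by their day 6 change therefore lean the other way in part through that grouping. Among members that had risen, this difference was -4.04 for Cyp4a12b and -2.95 for Cyp4b1 (adjusted p = 8.86e-06 and 8.46e-06), -2.73 for Sult1a1 (adjusted p = 0.000179), -1.24 for Aldh6a1 (adjusted p = 1.83e-09) and -0.94 for Ugt1a6a (adjusted p = 1.53e-08). Of the 10 upward differences, 8 were those of members called lower at day 6, among them 3.15 for Akr1c18 (adjusted p = 1.32e-06), 1.26 for Cyp1a1 (adjusted p = 0.000934), 0.97 for Sult1c2 (adjusted p = 3.21e-07) and 0.81 for Dhrs9 (adjusted p = 0.00737). The other 2 were Cyp1b1, already higher, at 0.54 (adjusted p = 5.67e-07), and Ugt1a9, not called at day 6, at 2.35 (adjusted p = 0.0188, and 0.0507 without corticosterone replicate 1 of day 6).

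**Figure D4:**
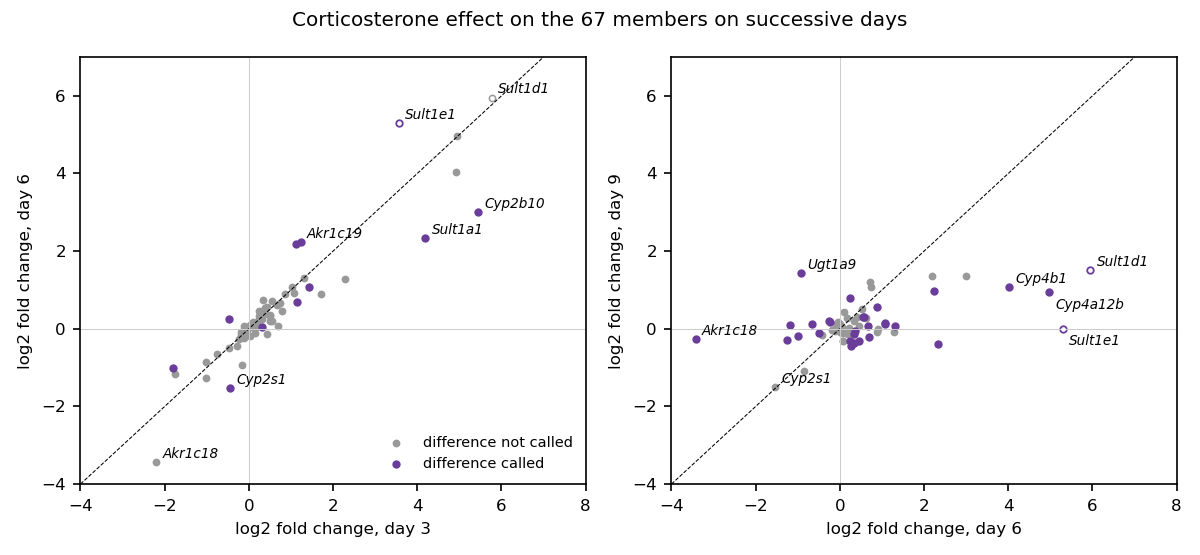
Log2 fold change, corticosterone over vehicle, of the 67 members on successive days: day 6 against day 3 (left) and day 9 against day 6 (right). Each point is 1 gene, purple where limma called the difference between the 2 days, with the dashed line marking equal change; Sult1d1 and Sult1e1 (white centres) are fitted differences from vehicle libraries at or near the lowest value. Most points lie along the line at left (Pearson r 0.924 with all 67 members). At right, changes beyond 2 in either direction at day 6 are smaller at day 9. Of these, Sult1e1, Sult1a1 and Akr1c18 lie near or below 0 at day 9. Sult1d1, Cyp2b10, Ugt2b35, Cyp4b1, Akr1c19 and Cyp4a12b lie between 0.93 and 1.51 on that day, and Cyp2s1 is at -1.50.

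Vehicle cultures changed as well while they stood at confluence. Against day 0, 42 members were higher and 12 lower at day 3 (over all genes, 36.5% and 32.7%), 36 higher and 11 lower at day 6 (36.4% and 33.7%), and 37 higher and 11 lower at day 9 (35.9% and 34.6%). With quantile normalization the day 9 counts were 28 higher and 16 lower. The 3 comparisons share the day 0 libraries.

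All 4 Ugt1a transcripts were higher in vehicle cultures at each later day than at day 0. Ugt1a6a stood at 3.49 ± 0.12 log2 CPM at day 0, 5.48 ± 0.10 at day 3, 5.98 ± 0.04 at day 6 and 6.31 ± 0.06 at day 9 in vehicle (SD, n = 4 each), with log2 fold changes against day 0 of 1.99, 2.50 and 2.82 (SE 0.07 each). At day 9 Ugt1a5, Ugt1a7c and Ugt1a9 were higher than at day 0 by 3.04 ± 0.45, 2.91 ± 0.44 and 2.61 ± 0.54 (adjusted p = 1.25e-06, 1.84e-06 and 0.000115). Their day 3 calls were lost on the log2(CPM + 1) scale (adjusted p = 0.0906, 0.0929 and 0.0816).

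For 1 set of members the change with time and the change with hormone ran in opposite directions. Sult1c2 was at 5.75, 5.88, 5.74 and 5.79 log2 CPM in vehicle at day 9, against 3.38, 3.27, 3.19 and 3.48 at day 0 (log2 fold change 2.46 ± 0.08, adjusted p = 3.95e-19). Cyp2s1 was higher at day 9 by 2.71 ± 0.16 (adjusted p = 7.8e-14) and Cyp1a1 by 1.08 ± 0.20 (adjusted p = 2.74e-05; 0.39 and not called with quantile normalization, adjusted p = 0.0652). All 3 were lower with corticosterone than in vehicle at days 3 and 6.

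Cyp46a1 and Hsd17b11 rose both with time in vehicle, by 1.47 ± 0.09 and 1.06 ± 0.08 at day 9, and with corticosterone at day 3. Akr1b7 had the widest rise with time of the aldo-keto reductases, at 0.16 ± 0.14 log2 CPM in vehicle at day 9, against -2.74 ± 0.51 at day 0 (SD, n = 4 each; log2 fold change 2.90 ± 0.25, adjusted p = 9.28e-11). Sult2b1 rose by 1.39 ± 0.36 (adjusted p = 0.00128; 0.76 and adjusted p = 0.0543 with quantile normalization).

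Akr1b3 fell with time in vehicle, at 6.47, 6.57, 6.49 and 6.55 log2 CPM at day 9, against 7.49, 7.61, 7.53 and 7.44 at day 0 (log2 fold change -1.0 ± 0.12, adjusted p = 2.83e-08). The log2 fold change was -0.97 ± 0.14 for Akr1c12, -0.86 ± 0.12 for Aldh7a1 and -0.47 ± 0.04 for Cyp20a1 (adjusted p = 1.5e-06, 4.27e-07 and 2.99e-10). Dhrs7b and Akr1b8 fell by 0.47 ± 0.08 and 0.46 ± 0.08, without overlap. Cyp3a13, a P450 of the drug-metabolizing Cyp3a family, was lower at day 9, with a log2 fold change of -1.41 ± 0.25 (adjusted p = 1.55e-05). The corticosterone libraries of day 9 held it at 0.41, 0.44, 0.42 and -0.16 log2 CPM, against -0.82, -0.91, -0.67 and -0.76 in vehicle (1.07 ± 0.25, adjusted p = 0.00186).

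**Figure D5:**
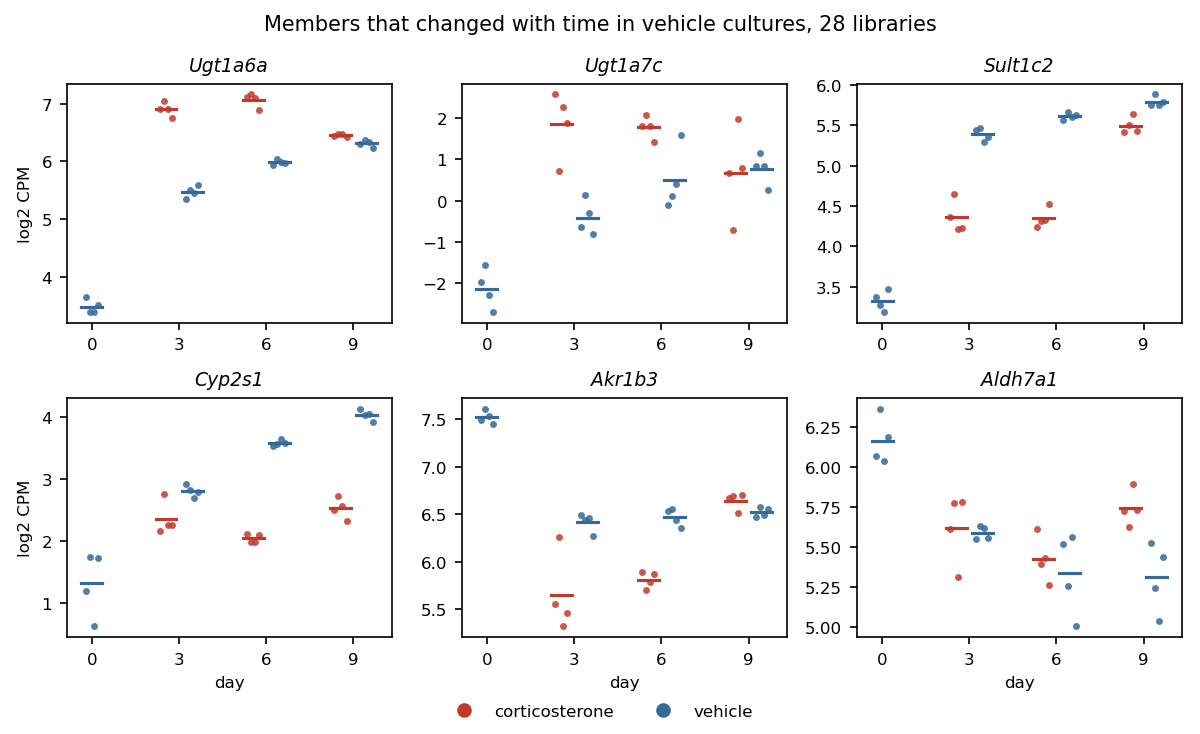
Log2 CPM of 6 members in each of the 28 libraries, by day, with corticosterone libraries in red to the left of vehicle libraries in blue; bars are group means. In vehicle, Ugt1a6a, Ugt1a7c, Sult1c2 and Cyp2s1 stand above day 0 on every later day and Akr1b3 and Aldh7a1 below it; corticosterone libraries of day 3 lie above vehicle for Ugt1a6a and Ugt1a7c and below it for Sult1c2 and Akr1b3.

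Genes that serve these enzymes were read from lists kept apart from the members. At day 3, 23.3% of all genes were called higher and 25.6% lower. Neither these short lists nor the enzyme families above were tested against those shares. Of 8 electron donors, 3 were higher and 2 lower at day 3. Por, the reductase that feeds every microsomal P450, was at 10.19 ± 0.11 log2 CPM with corticosterone and 8.69 ± 0.03 in vehicle at day 3 (SD, n = 4 each), a rise of 1.5 ± 0.07 (adjusted p = 7.45e-16) that was 0.65 ± 0.07 at day 6 and 0.09 ± 0.07 at day 9. Cyb5a, cytochrome b5, rose by 1.09 ± 0.08 at day 3 and 1.07 ± 0.08 at day 6 (adjusted p = 1.73e-11 and 1.85e-11).

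Of 11 receptors and other sensors of foreign compounds, 9 were in the table, 1 higher and 2 lower at day 3. Ahr, the aryl hydrocarbon receptor, was lower, with log2 fold changes of -1.04 ± 0.09 at day 3 and -0.68 ± 0.09 at day 6 (adjusted p = 7.82e-10 and 1.24e-06). Among 7 genes of cofactor supply none was higher and 3 were lower at day 3. Ugdh, which makes the UDP-glucuronic acid used by the Ugt enzymes, was lower, with log2 fold changes of -0.67 ± 0.05 at day 3 and -1.09 ± 0.05 at day 6 (adjusted p = 8.1e-11 and 5.22e-15), days on which Ugt1a6a was higher.

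Of 9 further genes of steroid handling, 8 were in the table, 3 higher and 2 lower at day 3. Srd5a2, which reduces testosterone to dihydrotestosterone, was at 0.14 ± 0.23 log2 CPM with corticosterone and 3.08 ± 0.07 in vehicle at day 6 (SD, n = 4 each; log2 fold change -2.95 ± 0.12, adjusted p = 3.27e-16), and was lower at days 3 and 9 as well, with log2 fold changes of -1.17 ± 0.12 and -1.10 ± 0.12 (adjusted p = 1.28e-08 and 1.68e-07).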

How the data were processed

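RNA of the DC2 line (28 samples, TRIzol extraction, TruSeq Stranded mRNA libraries, per the labels) was sequenced. The authors deposited 1 table of normalized log2 CPM with 13129 rows, and 13128 of them carry a gene symbol; the blank row held 0.0267 to 0.0698% of each library's CPM. kallisto (no version), edgeR 3.40.1, limma 3.54.0 and the build mm10 are listed, per the submitters' processing notes, with no role or order; the normalization and prior count are not stated in the sources used here. Deposited CPM values, with the log undone, summed to 949069 to 1.05965e+06 per library. No counts were used here, the depth of each library is unknown, and low values did not fall on whole-read steps (0 to 15.2% of them within 0.02), so no interval that needs depth is given.

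Groups came from sample titles. A model with 1 mean for each group was run on the 28 libraries in limma 3.58.1 (R 4.3.3; 21 residual degrees of freedom, empirical Bayes with an intensity trend), and 8 contrasts were tested with Benjamini-Hochberg adjustment over 13128 genes: the hormone effect over vehicle on each of days 3, 6 and 9, the change in vehicle on those days from day 0, and the difference of the corticosterone effect between successive days. A filter of log2 CPM 0 in 4 libraries removed no gene. Fold changes near the lowest value depend on the unknown prior count. On simulated data for day 3 (13128 genes), 40, 80, 98 and 100% of 50 planted changes of 0.25, 0.5, 1 and 2 log2 units were called, with 7 false calls among 12928 genes. Any 2 libraries differed by a root mean square of at least 0.282 log2 units.

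Replicate numbers were checked as pairs, by correlating the deviations of libraries from their group means. Same-numbered libraries of day 6 had correlations of 0.156, 0.126 and 0.11, and those of other days did not all pass 0.1. Differently numbered libraries of day 6 ranged from -0.249 to 0.229, which encloses those values, so the check cannot settle whether day 6 is paired. Day 6 had 29 members higher and 12 lower with the replicate block, against 30 and 11 without it.

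The summed level of the principal cell markers is not reported here. Members and gene lists were chosen with earlier results of these data known. Named are all Hsd3b and Akr1c members; for each day up to 10 rises and 10 falls (mean log2 CPM at least 0, no overlap); for vehicle day 9 up to 6 each; for differences between days the 5 widest each way; and up to 3 genes of other lists per comparison. Sult5a1, Cyp39a1, Cyp4f17, Cyp4x1, Ephx1, Ephx4, Akr1a1, Akr1b10, Aldh2, Dhrs11 and the other members without a call were chosen after their values were seen. Outside these rules, values of Sult1d1, Sult1e1, Sult1a1, Cyp2b10, Cyp4a12b, Cyp4b1, Cyp1a1, Ugt2b35 and Cyp3a13 were also singled out after they were seen. The same holds for values of Ugt1a5, Ugt1a6a, Ugt1a7c, Ugt1a9, Hsd17b14, Sult1c2, Sult2b1 and Cyp2s1. Transcript lengths (67 of 67 members) are from GENCODE and promoters from RefSeq. Figures used Python 3.11.15, pandas 2.3.3 and matplotlib 3.10.9.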

Additional observations from a re-analysis of the deposited data

Results flagged for a closer look

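For single libraries far from the rest of their group, a chance rate of about 1 in 20 was assumed and not computed from these data. Such libraries, far from the other 3 of their group, were found in 22 of 329 gene and group combinations of named members. In corticosterone day 3 these were Akr1c13 at 6.00 and Cyp2s1 at 2.76 log2 CPM in replicate 4 and Cyp3a13 at -1.90 in replicate 5. In corticosterone day 6 replicate 6 stood apart for Cyp46a1 at 4.72, Hsd17b11 at 6.95 and Sult1a1 at -0.42, lowest of its group each time, and replicate 1 for Sult1d1 at 2.58. In corticosterone day 9 replicate 6 stood apart for Sult1d1 at -1.07 and Cyp3a13 at -0.16, and replicate 5 for Aldh6a1 at 6.11 and Cyp4f16 at 4.81. In vehicle libraries these were Cyp2b10 at -1.86 (day 0, replicate 3) and -3.74 (day 9, replicate 3), Ugt1a5 at -2.24 (day 0, replicate 4), Cyp4a12b at -3.01 (day 3, replicate 6) and -4.15 (day 6, replicate 3), Hsd17b14 at -0.73 (day 6, replicate 6) and Sult1d1 at -3.66 (day 6, replicate 5). At day 9 they were also Akr1b8 at 5.51 and Cyp1b1 at 5.41 in replicate 4, Cyp2u1 at 1.65 in replicate 3 and Sult1a1 at -2.22 in replicate 5. For Cyp2b10 at days 0 and 9, Ugt1a5 at day 0, Cyp4a12b at day 3 and Sult1d1 at day 6, the other vehicle libraries were tied at the lowest value. Any value above it is flagged there.

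The corticosterone effect differed between days by limma's test of the difference itself. From day 3 to day 6 the difference (day 6 minus day 3, log2) was 1.00 for Akr1c19, 0.70 for Cyp1b1, 0.79 for Dhrs9, 1.73 for Sult1e1 and 1.07 for Ugt2b35, and -2.43 for Cyp2b10, -1.08 for Cyp2s1, -0.43 for Cyp46a1, -1.85 for Sult1a1 and -0.34 for Ugt1a6a. Calls were lost for Sult1e1 without corticosterone replicate 1 of day 3 or 1, 3 or 5 of day 6 (adjusted p = 0.0550 to 0.0736), for Dhrs9 without vehicle replicate 6 of day 3 or vehicle or corticosterone replicate 6 of day 6 (adjusted p = 0.0577 to 0.0593) and for Ugt1a6a when only the groups compared were fitted (adjusted p = 0.0527). For Sult1e1 and Sult1d1, here and below, this is a fitted difference from vehicle libraries at or near the lowest value, not a fold.

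From day 6 to day 9 the difference was upward for members that had been lower with corticosterone at day 6: 0.78 for Akr1b3, 0.45 for Akr1b8, 3.15 for Akr1c18, 1.26 for Cyp1a1, 0.43 for Dhrs4, 0.81 for Dhrs9, 0.39 for Hsd17b12 and 0.97 for Sult1c2. It was also upward for Cyp1b1 at 0.54 and Ugt1a9 at 2.35. The difference holds the day 6 effect with its sign reversed, so an upward lean of members lower at day 6 is partly built in. Downward differences among aldo-keto reductases and P450s were -0.33 for Akr1c13, -1.27 for Akr1c19, -0.27 for Cyp2j6, -0.91 for Cyp46a1, -4.04 for Cyp4a12b, -2.95 for Cyp4b1, -0.76 for Cyp4f13 and -0.72 for Cyp4v3. Among the other families they were -1.24 for Aldh6a1, -0.60 for Dhrs7, -0.96 for Hsd17b11, -0.24 for Hsd17b4, -0.57 for Hsd3b2, -2.73 for Sult1a1, -4.45 for Sult1d1, -5.30 for Sult1e1 and -0.94 for Ugt1a6a. The Cyp2j6 call was lost when any 1 library was left out (adjusted p = 0.0549 to 0.102) other than vehicle replicate 4 or corticosterone replicate 6 of day 6 or vehicle replicate 3 or 5 of day 9. The Hsd17b4 call was lost when any 1 library was left out (adjusted p = 0.0504 to 0.107) other than vehicle replicate 4 or corticosterone replicate 1 of day 6, or vehicle replicate 3 or 6 or corticosterone replicate 3 of day 9. The Ugt1a9 call was lost without corticosterone replicate 1 of day 6 (adjusted p = 0.0507).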

How the results depend on the processing

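Most counts of members called stayed within 1.5 times under every alternative. With a stricter filter (log2 CPM 2, 45 members tested) 21 members were higher with corticosterone at day 3 and 24 higher in vehicle at day 9, and 3 had a larger effect at day 6 than at day 3; that last count was also 3 when only the groups compared were fitted. Leaving out 1 library gave 30 to 34 higher and 9 to 15 lower at day 3, 28 to 30 and 10 to 12 at day 6, and 14 to 16 and 5 to 7 at day 9. It gave 3 to 6 and 4 to 8 for day 6 minus day 3, and 9 to 12 and 17 to 21 for day 9 minus day 6. In vehicle against day 0 it gave 38 to 43 and 10 to 12 at day 3, 32 to 36 and 11 at day 6, and 34 to 38 and 11 at day 9. Of 306 values of named members, quantile normalization lost 34 calls, gained 1 and turned 2 signs (vehicle against day 0: Cyp2u1 at day 6, -0.0865, and Cyp4b1 at day 9, -0.25). Fitting only the groups compared lost 17, log2(CPM + 5) 13, log2(CPM + 1) 8, library weights 5 and no intensity trend 1; no filter and median centring changed none. The cause was not tested. Akr1c14 ranged over -0.291 to 0.0174 at day 6 and -0.127 to 0.0683 at day 9 with 1 library left out, turning sign without vehicle replicate 5 and without corticosterone replicate 4. With the replicate block the counts were 34 and 12 at day 3, 29 and 12 at day 6 and 18 and 7 at day 9. The block lost 5 calls: Ugt1a7c at day 6 (1.06), Ugt2b35 and Cyp46a1 for day 6 minus day 3 (1.09 and -0.41), Cyp4b1 in vehicle at day 9 (0.72) and 1 more for day 9 minus day 6. Values near -4.15 log2 CPM cannot be ordered, and without counts the depth behind them is unknown.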
